A study of Homo sapiens with 12 samples.

Results

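Messenger RNA of 43 genes of the response to low oxygen and of glycolysis was examined in xenograft tumours grown from the established line H3122, a human lung adenocarcinoma with the EML4-ALK fusion. The genes were taken from a list of glycolytic enzymes and hypoxia-induced genes, by a rule that sets no threshold on the measured values, and were found on the array by gene symbol. Of the 43 genes, 42 had a named probe and all 42 of these were tested, among 12300 genes tested in all. The remaining gene, CA9, was not analysed here.

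The tumours were grown in mice and profiled on Illumina expression BeadChips. Ceritinib, an inhibitor of the ALK kinase, was given at 75 mg/kg (4 tumours), 87.5 mg/kg (3 tumours) or 100 mg/kg (3 tumours), and 2 tumours were labelled as controls, with no vehicle named. Per the study's design text, treated tumours first shrank and later grew back as resistant tumours. All groups share the cell line, and the treated tumours were not sampled before resistance or off the drug, so an effect of ceritinib and a trait of resistance cannot be told apart. Whether the tumours came from separate mice is not in the labels, and the p-values measure only the spread between these tumours. The mouse strain was not given, and the tumours contain host cells whose mouse RNA a human array was not designed to measure. Bulk RNA was measured, so fewer cells of a type and less RNA per cell cannot be told apart.

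Each array detected between 38% and 41.2% of 47323 probes. Of 12300 genes, 2318 passed an adjusted p of 0.05 in treated against control tumours (limma, Benjamini-Hochberg adjustment), 1215 higher and 1103 lower (47.6% of the changed genes were lower, 68% with median scaling and 81.2% with unnormalized signals). All 11 lung epithelial markers listed were tested, and 10 were detected in all 12 tumours. KRT18 passed detection in both controls and in 1 treated tumour. EPCAM averaged a log2 signal of 14.71 in treated and 14.6 in control tumours and did not pass the test (difference 0.13), NKX2-1 (0.70) and SFTPB (4.54) were higher in treated tumours, and KRT7 (-1.01), CDH1 (-0.59), KRT19 (-0.64) and MUC1 (-1.64) were lower. Of 27 stromal, endothelial and immune markers, 11 were tested, and 16, among them PTPRC, CSF1R, PDGFRA, PDGFRB and COL3A1, were detected on too few arrays. Signals below are quantile-normalized log2 intensities, differences are treated minus control on that scale with the 3 doses weighted alike, and SE is the standard error of a difference.

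At normal oxygen, prolyl hydroxylases encoded by the EGLN genes mark the alpha subunits HIF1A and EPAS1 for destruction. At low oxygen the alpha subunits persist, pair with ARNT and bind DNA elements with the core ACGTG, which raises the transcription of glucose carriers, glycolytic enzymes, VEGFA and the EGLN genes themselves. Growth factor receptors and their kinases are also known to raise glucose use in tumour cells, and glycolysis feeds pyruvate either to the mitochondria or, through LDHA, to lactate.

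The core of the hypoxia element was looked up in the start regions of the genes, from RefSeq (GRCh38.p14), each 300 bases long with 250 bases before and 50 after a transcription start. The motif was ACGTG or its complement CACGT, so both strands were read, and the palindrome CACGTG counts on each strand. It occurred in 21.4% of all 35116 such windows, and 24.9% of all 27305 genes had it in any of their windows. Start regions were matched for 38 of the 42 tested genes, and 23 of them (60.5%) held the motif. Counted by window, 29 of the 66 windows of these genes (43.9%) held it. The list was chosen to hold hypoxia-induced genes, so these shares are no independent result about it. Tested genes without a matched start region were BNIP3L, NDRG1, STC1 and VEGFA. The motif was present in 7 of 11 matched genes that were lower in treated tumours, in 1 of 2 that were higher and in 15 of 25 that did not pass the test. Start regions of 4 genes are shown on the sense strand, with the motif in capitals. HK2 (chr2:74834920-74835219, plus strand) and BHLHE40 (chr3:4979187-4979486, plus strand) were lower in treated tumours, BNIP3 (chr10:131981874-131982173, minus strand) was higher, and LDHA (chr11:18394313-18394612, plus strand), with the most motif copies among the printed regions, did not pass the test.
HK2: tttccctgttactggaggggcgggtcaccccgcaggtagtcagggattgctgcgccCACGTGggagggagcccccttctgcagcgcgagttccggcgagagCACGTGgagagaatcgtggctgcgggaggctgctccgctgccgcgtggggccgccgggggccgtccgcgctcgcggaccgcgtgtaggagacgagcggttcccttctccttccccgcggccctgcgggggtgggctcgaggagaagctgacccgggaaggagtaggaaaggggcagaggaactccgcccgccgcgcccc
BHLHE40: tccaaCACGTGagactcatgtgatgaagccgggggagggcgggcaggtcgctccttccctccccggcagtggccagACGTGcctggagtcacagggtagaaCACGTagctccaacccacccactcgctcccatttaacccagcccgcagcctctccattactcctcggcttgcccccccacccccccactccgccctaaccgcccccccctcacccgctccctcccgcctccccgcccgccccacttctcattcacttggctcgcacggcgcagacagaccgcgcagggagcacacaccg
BNIP3: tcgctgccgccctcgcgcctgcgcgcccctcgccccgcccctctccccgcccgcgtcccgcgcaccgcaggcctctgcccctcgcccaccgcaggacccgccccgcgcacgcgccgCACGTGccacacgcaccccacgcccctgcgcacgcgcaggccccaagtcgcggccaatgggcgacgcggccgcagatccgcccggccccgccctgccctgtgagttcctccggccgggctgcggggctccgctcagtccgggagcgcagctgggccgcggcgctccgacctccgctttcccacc
LDHA: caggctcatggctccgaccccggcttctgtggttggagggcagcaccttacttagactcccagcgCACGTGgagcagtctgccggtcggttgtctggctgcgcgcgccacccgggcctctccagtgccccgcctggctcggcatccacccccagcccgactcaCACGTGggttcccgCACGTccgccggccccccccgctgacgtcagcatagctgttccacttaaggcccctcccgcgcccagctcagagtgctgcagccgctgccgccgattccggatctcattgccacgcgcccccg
The HK2 and BHLHE40 windows each held 2 copies on the sense strand and 2 on the other. The BNIP3 window held 1 on each strand, and the LDHA window held 2 on the sense strand and 3 on the other. The printed regions were chosen among genes with the motif, each as the window of its gene with the most copies. That all 4 carry it was therefore set by this choice. Another window of LDHA held 0 copies and another of HK2 held 2. Binding was not measured.

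Among the 42 genes, 12 were lower in treated tumours (8.97% of all genes tested were) and 2 were higher (9.88% of all genes were). In either direction 14 of 42 passed, beside 18.8% of all genes. The median difference was -0.42 over the 42 genes and 0.02 over all genes, and 32 of the 42 lay below 0, against 47.9% of all genes. All 10 treated tumours lay below both controls for 11 of the 42 (11% of all genes) and above both for 3 (11.5% of all genes). Fitted changes of more than 2-fold past the threshold were found for 4 (6.69% of all genes): STC2, HK2, PKM and CA12, of which CA12 was at background in every treated tumour and has only a bound on its fold, given below. CA12 is among the 12 lower genes and the 11 below both controls, and passed the filter on low signals through the controls alone. Most differences thus lay below 0, while 28 of 42 missed the threshold.

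**Figure D1:**
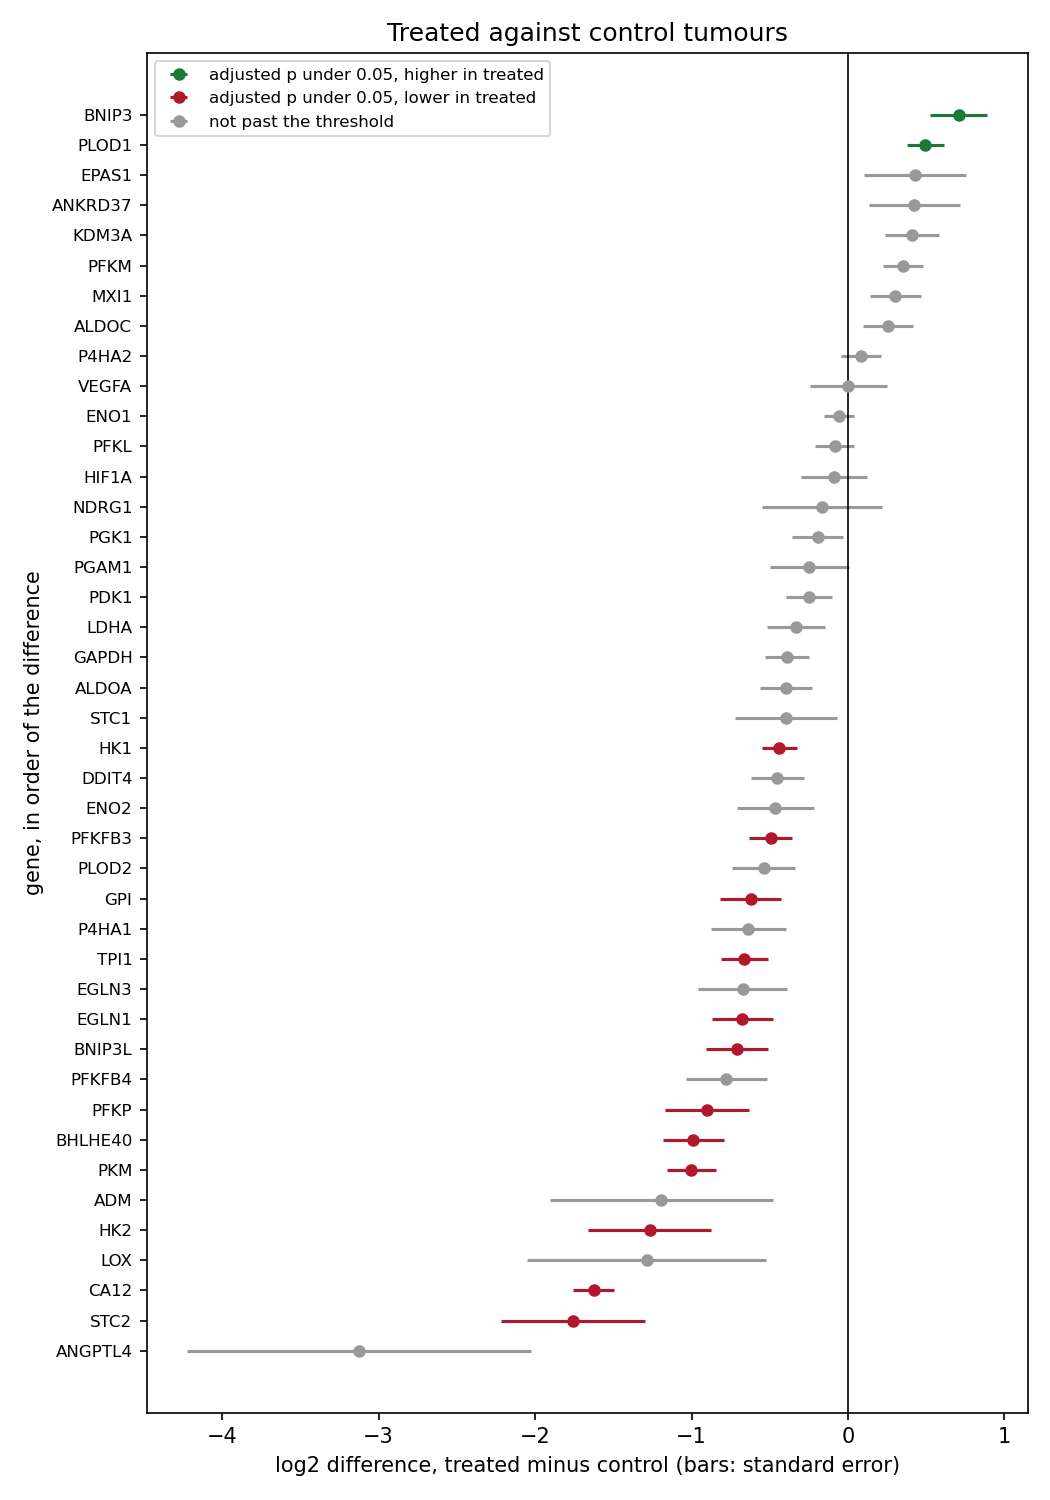
Log2 difference in signal, treated minus control, for the 42 genes, with bars for the standard error and colours for genes past an adjusted p of 0.05 as higher, as lower or not past it. Most points lie left of 0 (32 of 42), from ANGPTL4 at -3.12 to BNIP3 at 0.71, and the widest bars belong to ANGPTL4, LOX and ADM.

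Of the 16 enzymes of glycolysis, 6 were lower, 0 were higher and 10 did not pass, with a median of -0.39. Pyruvate kinase PKM, which makes pyruvate and ATP in the last step, had log2 signals of 12.42 to 13.46 (median 12.89) in the 10 treated tumours, against 13.97 and 13.88 in the controls. Every treated tumour was below both controls. The difference was -1.0 (SE 0.16, adjusted p = 0.00141 by limma, 2-fold lower), and the other probes of PKM gave -0.97 and -0.92.

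Triosephosphate isomerase TPI1, which interconverts the 3-carbon sugars, had signals of 12.64 to 13.25 (median 12.89) in treated tumours and 13.62 and 13.52 in controls. It fell 1.58-fold (difference -0.66, SE 0.15, adjusted p = 0.0105), with no overlap between the groups, while its other probe missed the threshold at -0.49 (adjusted p = 0.123). The hexokinases, which trap glucose in the cell by phosphorylation, were both lower. HK1 had 12.90 to 13.48 (median 13.14) in treated tumours and 13.65 and 13.61 in controls, a difference of -0.44 (SE 0.11, adjusted p = 0.0214). HK2, the hypoxia-inducible hexokinase whose start region is printed above, had 10.20 to 12.57 (median 11.28) in treated tumours and 12.67 and 12.47 in controls. The top of the HK2 range, replicate 2 at 87.5 mg/kg, lay between the controls, and the difference was -1.27 (SE 0.39, adjusted p = 0.0444, 2.41-fold lower). The second HK2 probe gave -1.14 (adjusted p = 0.0419).

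Glucose-6-phosphate isomerase GPI, the next enzyme, had 10.58 to 11.66 (median 11.29) in treated tumours and 12.03 and 11.75 in controls, a difference of -0.62 (SE 0.20, adjusted p = 0.0487). The 3 phosphofructokinase genes encode subunits of the committing step, and only PFKP passed. PFKP, the platelet form, had 10.27 to 11.68 (median 10.88) in treated tumours, against 11.90 and 11.86 in controls, and was 1.87-fold lower (difference -0.90, SE 0.27, adjusted p = 0.0387). The liver form PFKL differed by -0.09 (95% interval -0.37 to 0.19) and the muscle form PFKM by 0.35 (0.07 to 0.64, adjusted p = 0.0826), neither past the threshold.

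The other glycolytic enzymes did not pass. GAPDH, which oxidises glyceraldehyde phosphate, had 15.06 to 15.72 (median 15.16) in treated tumours and 15.69 and 15.63 in controls, with a difference of -0.39 (adjusted p = 0.0802). The aldolase gene ALDOA differed by -0.40 (adjusted p = 0.122), its brain form ALDOC by 0.25 (adjusted p = 0.292) and the neuronal enolase ENO2 by -0.46 (adjusted p = 0.213). A second ALDOA probe gave -0.81 (limma, adjusted p = 0.0553). ALDOA passed as lower with unnormalized signals and with the mean of its kept probes. LDHA, which turns pyruvate into lactate, had 14.74 to 15.49 (median 14.99) in treated tumours and 15.52 and 15.18 in controls, so the groups overlapped (difference -0.33, 95% interval -0.74 to 0.07, adjusted p = 0.235). ENO1, the main enolase, was nearly flat at -0.06 with an interval of -0.26 to 0.15, and PGAM1, phosphoglycerate mutase, had -0.25 (interval -0.80 to 0.31). Phosphoglycerate kinase PGK1 depended on the probe, at -0.19 (adjusted p = 0.444) for its brightest and -0.78 (adjusted p = 0.0523) for the other. Several of these genes, such as GAPDH, LDHA, PGAM1, ENO1 and TPI1, have near-identical copies in the genome that a probe may share, so their values are uncertain in that respect.

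The switches of glycolytic flux had 1 of 3 lower. PFKFB3 makes the sugar bisphosphate that activates phosphofructokinase, and had 11.95 to 13.04 (median 12.30) in treated tumours and 12.91 and 13.01 in controls. Its difference was -0.49 (SE 0.14, adjusted p = 0.0285), and the treated range overlapped the controls through tumours at 87.5 mg/kg alone. The other PFKFB3 probe gave -0.25 and did not pass (adjusted p = 0.243). Its relative PFKFB4 had -0.78 (SE 0.26, adjusted p = 0.0595), with 10.67 to 12.34 in treated tumours and 12.23 and 12.42 in controls. PDK1, which keeps pyruvate out of the mitochondria, had -0.25 (adjusted p = 0.262).

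**Figure D2:**
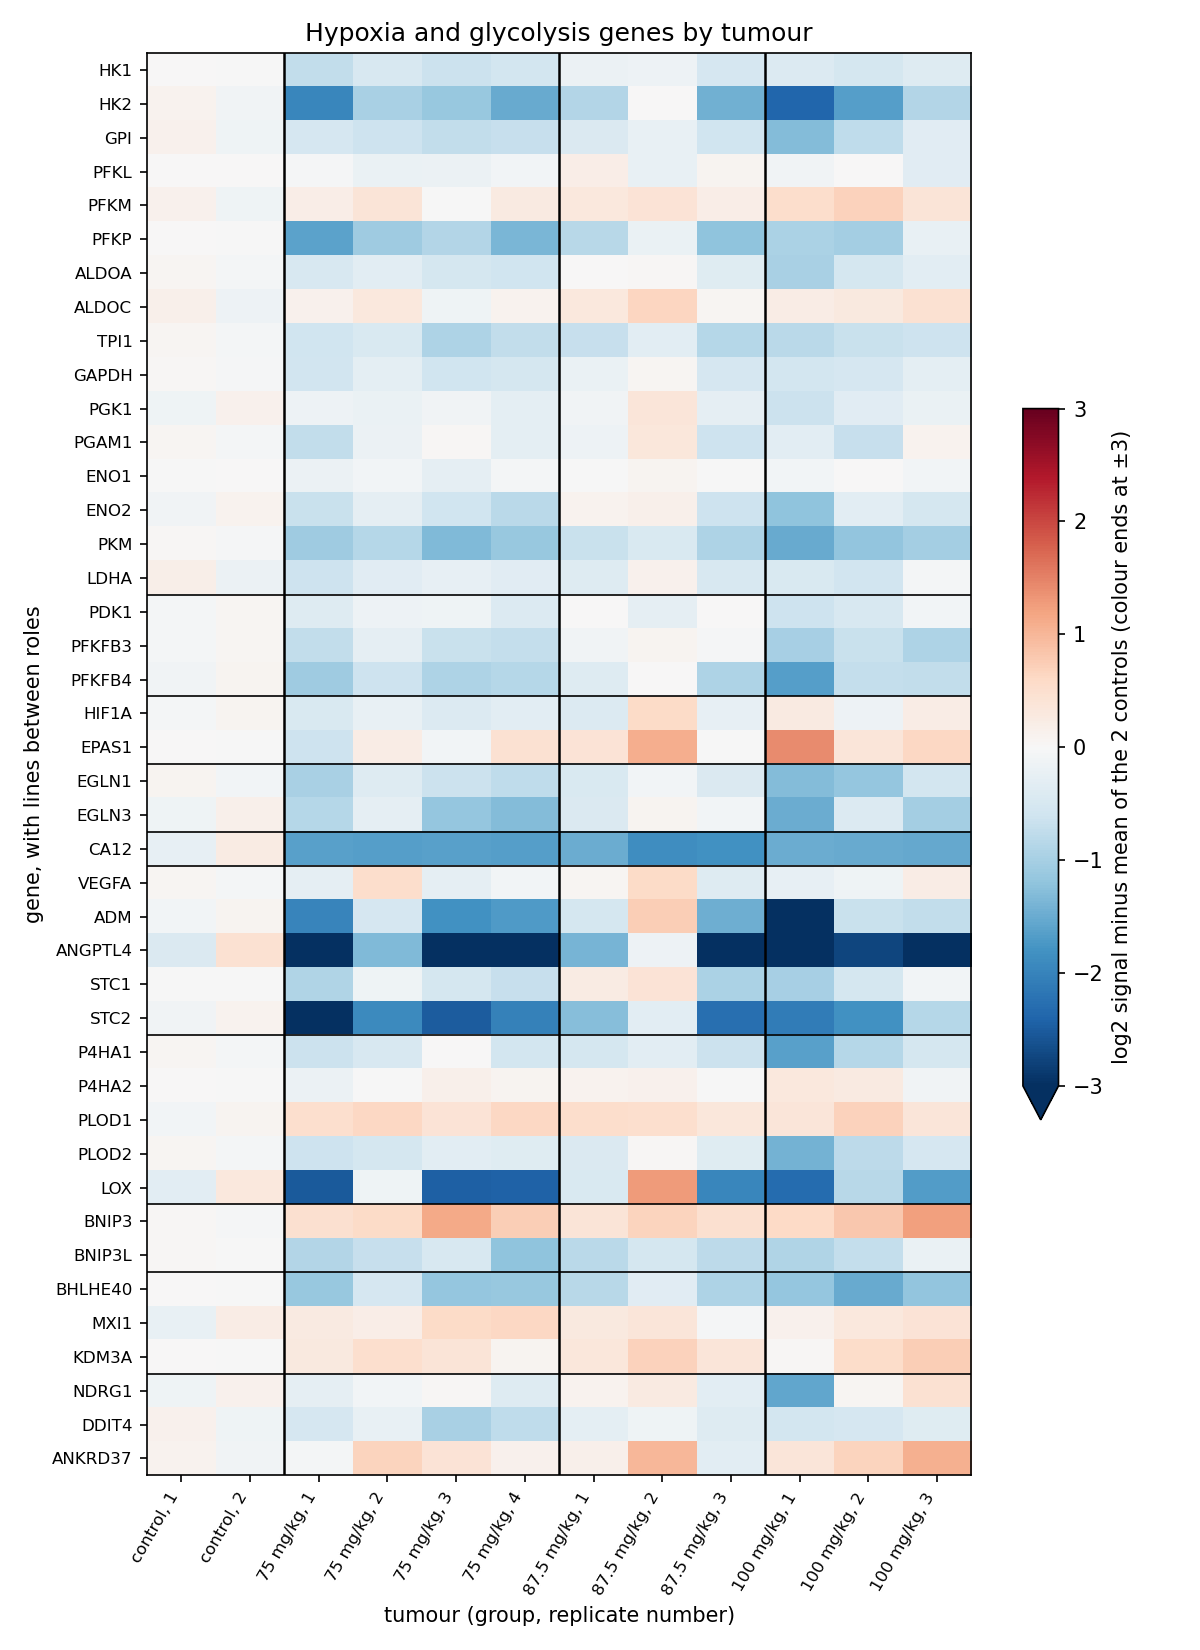
Log2 signal of each of the 42 genes (down, with lines between roles) in each of the 12 tumours (across, by dose from the controls on the left), as the difference from the mean of the 2 controls, with colour ending at 3 in each direction. Blue dominates at 75 and 100 mg/kg, replicate 2 at 87.5 mg/kg is the palest treated column, and BNIP3 and PLOD1 are red in all 10 treated tumours.

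The HIF alpha subunits showed no difference past the threshold. HIF1A had 10.35 to 11.40 (median 10.58) in treated tumours and 10.75 and 10.89 in controls, a difference of -0.09 (95% interval -0.56 to 0.38). EPAS1, which encodes HIF-2 alpha, had 10.41 to 12.43 (median 11.41) in treated tumours and 11.03 and 11.02 in controls, a difference of 0.43 (interval -0.29 to 1.14, adjusted p = 0.395). HIF alpha subunits are controlled mainly through protein stability, which an array does not measure. Of the prolyl hydroxylases, EGLN1, the main oxygen sensor and itself a HIF target, had 7.29 to 8.51 (median 7.99) in treated tumours and 8.66 and 8.51 in controls. EGLN1 was 1.6-fold lower (difference -0.67, SE 0.20, adjusted p = 0.0344), with the highest treated tumour just under the lower control. EGLN3 had the same size of difference, -0.67, with a wider spread (SE 0.28, adjusted p = 0.125) and 10.98 to 12.55 in treated tumours, against 12.33 and 12.61 in controls.

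CA12, a membrane carbonic anhydrase that helps tumour cells to export acid, was detected in 0 of 10 treated tumours and in 2 of 2 controls. Its signals were 4.98 to 5.36 (median 5.22) in treated tumours and 6.60 and 7.09 in controls, so it passed the filter on low signals through the controls alone. With each undetected signal raised to the lowest detected signal on its array, CA12 was at least 1.66-fold lower. The fit itself, on the signals as normalized and without this floor, gave an adjusted p of 2.13e-05 (limma). This p-value is no independent support, since the filter kept CA12 only because it was detected in the controls. The same bound was at least 1.62-fold at 75 mg/kg, 1.69-fold at 87.5 mg/kg and 1.68-fold at 100 mg/kg.

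Secreted factors had the largest median difference among the roles with over 2 tested genes, -1.19, and 1 of 5 was lower. STC2, a stanniocalcin glycoprotein, had 8.5 to 11.38 (median 9.73) in treated tumours and 11.58 and 11.80 in controls, and was 3.38-fold lower (difference -1.76, SE 0.46, adjusted p = 0.0219). All 10 treated tumours were below both controls. ANGPTL4, a HIF target that inhibits lipoprotein lipase, had the largest difference of the 42 genes, -3.12, but a large error (SE 1.10, adjusted p = 0.0709). Its signals were 9, 10.97, 7.94 and 7.98 at 75 mg/kg, 10.91, 12.14 and 8.73 at 87.5 mg/kg and 5.42, 9.55 and 8.94 at 100 mg/kg, against 11.86 and 12.75 in controls. Replicate 2 at 87.5 mg/kg lay between the controls, and replicate 1 at 100 mg/kg did not pass detection. A second ANGPTL4 probe was lower and passed (difference -1.42, adjusted p = 0.0319).

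ADM, the vasodilator peptide adrenomedullin, had 11.65, 13.13, 11.81 and 11.93 at 75 mg/kg, 13.11, 14.36 and 12.16 at 87.5 mg/kg and 10.06, 12.95 and 12.90 at 100 mg/kg, against 13.55 and 13.70 in controls. All but 1 treated tumour lay below both controls, but the spread left the difference at -1.19 (SE 0.71, adjusted p = 0.271). VEGFA, the main angiogenic factor of the HIF response, had 9.36 to 10.32 (median 9.64) in treated tumours and 9.80 and 9.68 in controls, a difference of 0.00 with a 95% interval of -0.54 to 0.54. The sign of the VEGFA difference changed with scaling, to -0.14 with median scaling and -0.20 with unnormalized signals. STC1 had -0.40 (interval -1.11 to 0.32).

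Of the 5 collagen-modifying enzymes, 1 was higher, 0 were lower and 4 did not pass. PLOD1, a lysyl hydroxylase, had 12.23 to 12.58 (median 12.39) in treated tumours and 11.79 and 11.97 in controls, and rose 1.41-fold (difference 0.49, SE 0.12, adjusted p = 0.014), with all 10 treated tumours above both controls. Its hypoxia-induced relative PLOD2 had 11.15 to 12.61 in treated tumours and 12.62 and 12.52 in controls, a difference of -0.54 (adjusted p = 0.0892). The prolyl hydroxylase subunit P4HA1 had -0.64 (adjusted p = 0.0881), while P4HA2 had 0.08 (interval -0.20 to 0.37), with a change of sign to -0.07 under median scaling and -0.15 with unnormalized signals. The dimmest kept probes of PLOD2 (-1.31, adjusted p = 0.0195) and P4HA1 (-0.70, adjusted p = 0.0304) passed as lower. LOX, which cross-links collagen, had 7.15, 9.56, 7.22 and 7.25 at 75 mg/kg, 9.22, 10.96 and 7.73 at 87.5 mg/kg and 7.37, 8.85 and 8 at 100 mg/kg, against 9.35 and 10 in controls. The LOX difference of -1.29 (SE 0.76, adjusted p = 0.268) did not pass, and replicate 2 of both lower doses exceeded the lower control.

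The mitophagy receptors BNIP3 and BNIP3L, paralogs that tag mitochondria for removal and are both known HIF targets, moved in opposite directions. BNIP3 had 11.76 to 12.61 (median 12.02) in treated tumours and 11.42 and 11.34 in controls, and rose 1.63-fold (difference 0.71, SE 0.18, adjusted p = 0.0219). BNIP3L had 10.43 to 11.43 (median 10.89) in treated tumours and 11.66 and 11.62 in controls, and fell 1.63-fold (difference -0.71, SE 0.20, adjusted p = 0.0273). Neither gene's groups overlapped. A second BNIP3L probe had -0.43 (adjusted p = 0.0584). The rises of BNIP3 and PLOD1 kept their sign but missed the threshold with median scaling (0.55, adjusted p = 0.0802 for BNIP3 and 0.34, adjusted p = 0.067 for PLOD1) and with unnormalized signals (0.46, adjusted p = 0.105 and 0.26, adjusted p = 0.113). Those scalings moved the median of all genes to -0.11 and -0.16.

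Among regulators of transcription and chromatin, the repressor gene BHLHE40, a HIF target, had 12.85 to 14.01 (median 13.22) in treated tumours and 14.37 and 14.34 in controls. BHLHE40 was 1.98-fold lower (difference -0.99, SE 0.19, adjusted p = 0.00498), with no overlap. KDM3A, a histone demethylase, was above both controls in all 10 treated tumours (10.33 to 11.04, against 10.31 and 10.28), but its difference of 0.41 did not pass (adjusted p = 0.129). MXI1, an antagonist of MYC, had 0.30 (adjusted p = 0.224) and -0.39 (adjusted p = 0.314) by its other kept probe, so its direction depended on the probe. Of the other stress-responsive genes, DDIT4, an inhibitor of mTORC1, was below both controls in all 10 treated tumours (13.54 to 14.40, against 14.64 and 14.40) without passing (-0.45, adjusted p = 0.0901). NDRG1 had -0.17 (adjusted p = 0.802), with 12, 13.61 and 14.02 at 100 mg/kg alone, and ANKRD37 had 0.42 (adjusted p = 0.341).

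The doses were then set against the controls separately, which share the same 2 control tumours. At 75 mg/kg 9 of 42 genes were lower (7.13% of all genes) and 2 higher (7.37% of all genes), at 87.5 mg/kg 1 was lower (2.93%) and 0 higher (3.25%, or 6.18% in either direction), and at 100 mg/kg 14 were lower (10.2%) and 3 higher (11.9%). The median difference of the 42 genes was -0.49 at 75 mg/kg, -0.15 at 87.5 mg/kg and -0.50 at 100 mg/kg, while that of all genes was 0.00, 0.01 and 0.04. The difference from control therefore did not grow with dose, and the middle dose lay nearest to the controls. By group means, 87.5 mg/kg was the dose nearest to control for 32 of the 42 genes (45.9% of all genes), 75 mg/kg for 7 (30.3%) and 100 mg/kg for 3 (23.7%).

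The gene called at 87.5 mg/kg was CA12, which was at background in all 3 tumours of that dose, so the call rests on its detection in the 2 controls. The same holds for CA12 among the lower genes at 75 and 100 mg/kg. At 75 mg/kg HK1, PFKP (-1.23), TPI1, PKM (-1.09), PFKFB3, CA12, STC2 (-2.40, adjusted p = 0.00999), BNIP3L and BHLHE40 were lower and BNIP3 and PLOD1 higher. At 100 mg/kg genes of the list passed that did not pass over all doses together, among them ALDOA (-0.60, adjusted p = 0.0476), PFKFB4 (-1.04, adjusted p = 0.0325), ANGPTL4 (-4.33, SE 1.29, adjusted p = 0.0339), P4HA1 (-1.0, adjusted p = 0.0261), PLOD2 (-0.90, adjusted p = 0.0197) and, upward, PFKM (0.54, adjusted p = 0.0269). PKM was -1.23 at 100 mg/kg (adjusted p = 0.000956), BHLHE40 -1.28 (adjusted p = 0.00247) and EGLN1 -1.01 (adjusted p = 0.00994).

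**Figure D3:**
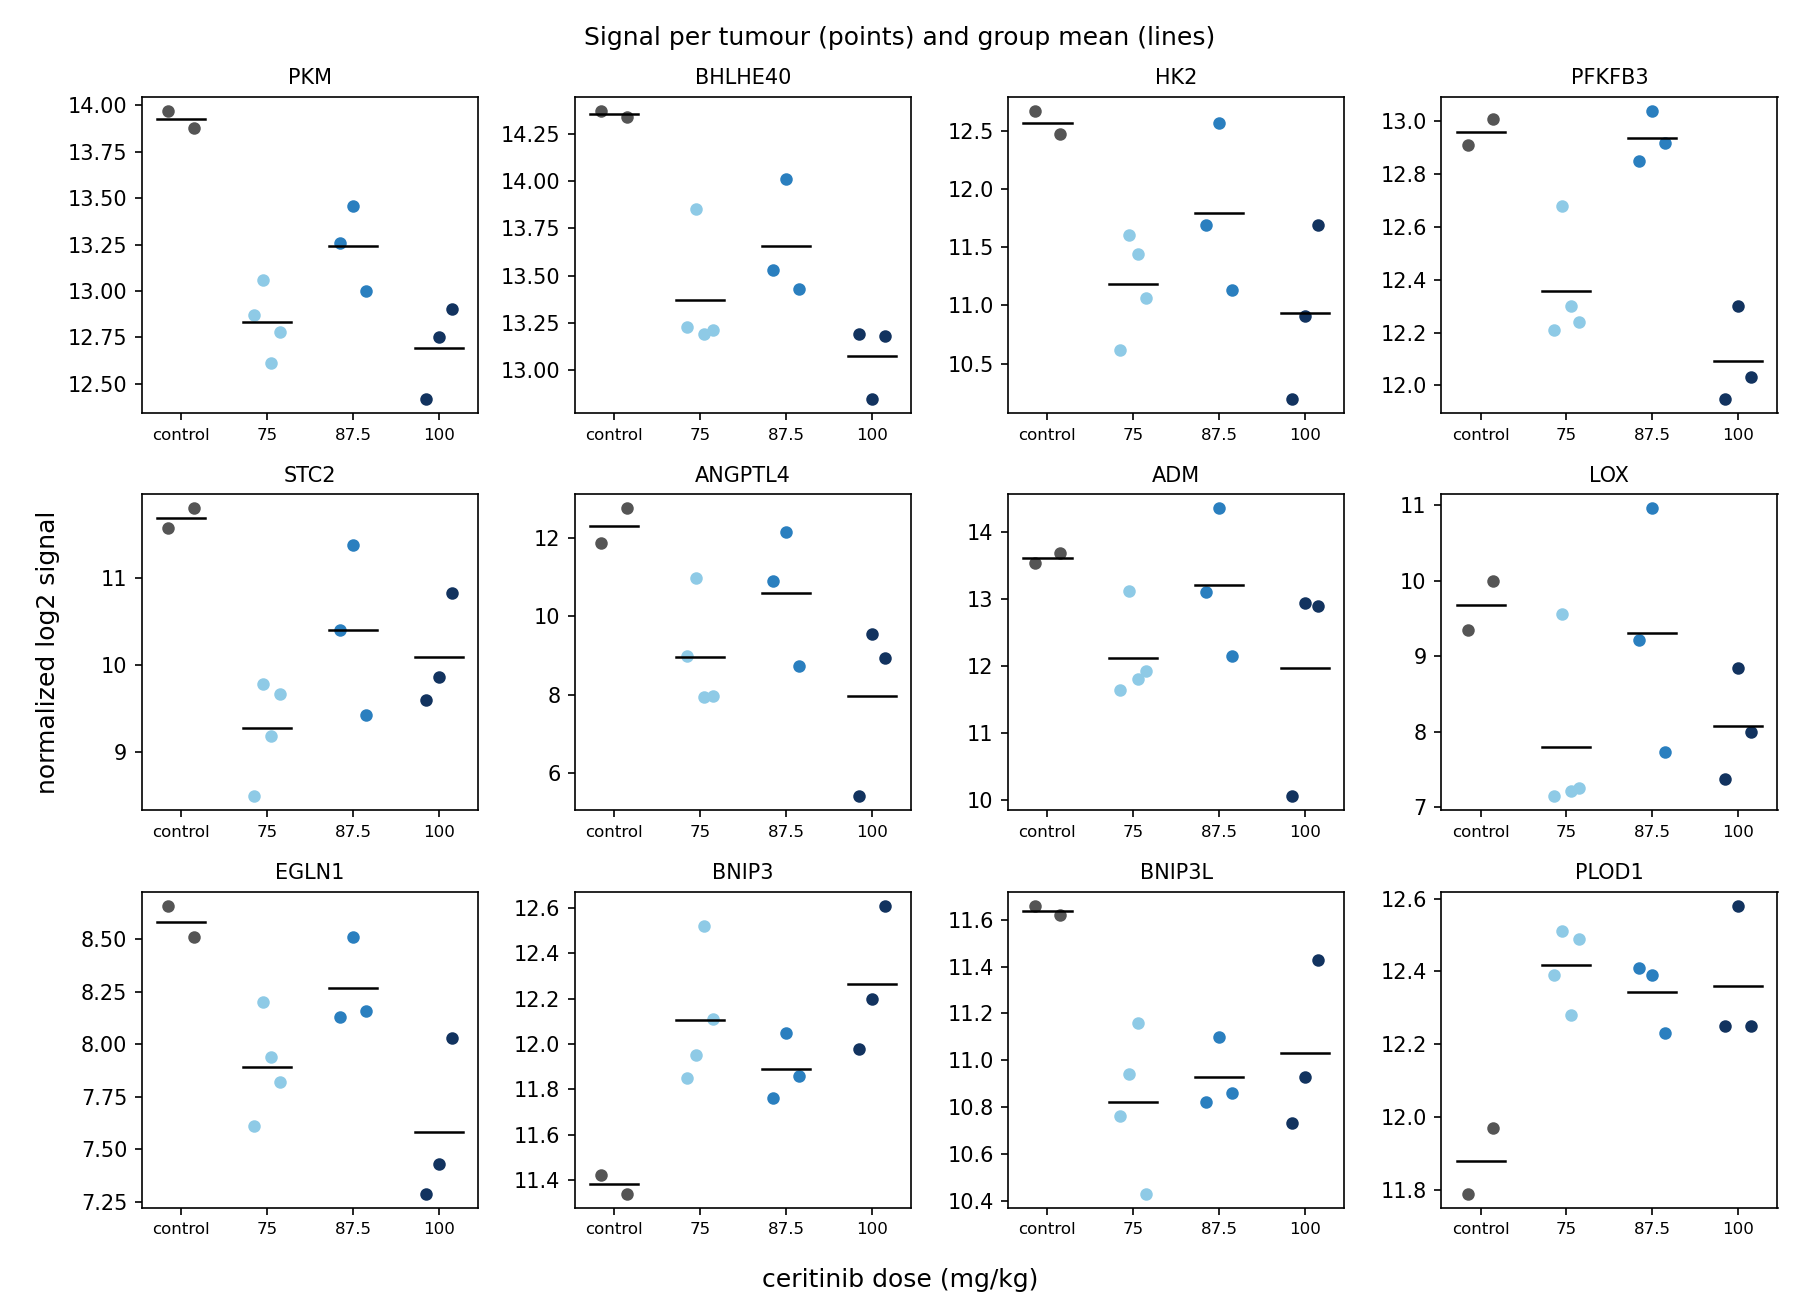
Normalized log2 signal of 12 of the genes in each tumour (points) with group means (lines), by ceritinib dose in mg/kg with the controls at the left of each panel. PFKFB3 at 87.5 mg/kg (12.85 to 13.04) lies at the level of the controls and above all tumours at 100 mg/kg, BNIP3 lies above both controls at every dose, and ANGPTL4, ADM and LOX spread widely within a dose.

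Between doses, 1 of 42 genes passed for 100 against 87.5 mg/kg (0.78% of all genes), 0 for 100 against 75 mg/kg (0.667% of all genes, 0.244% higher and 0.423% lower) and 0 for 87.5 against 75 mg/kg (0% of all genes). The gene was PFKFB3, with 11.95, 12.30 and 12.03 at 100 mg/kg, against 12.85, 13.04 and 12.92 at 87.5 mg/kg. The difference was -0.84 (SE 0.15, adjusted p = 0.0422 by limma), and the tumours of both doses did not overlap. At 75 mg/kg PFKFB3 had 12.21, 12.68, 12.30 and 12.24, which gave 0.58 for 87.5 against 75 mg/kg without passing (adjusted p = 0.377). The PFKFB3 call was kept without replicate 2 or 3 at 75 mg/kg or replicate 2 at 87.5 mg/kg, and was lost without any other tumour, controls included (adjusted p of 0.0541 to 0.111). For 87.5 against 75 mg/kg, 36 of 42 genes lay above 0 and 6 below (49.2% of all genes lay below). The median was 0.23, against 0.004 over all genes, a description over genes that share the same tumours.

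Single tumours stood apart for these genes. Replicate 2 at 87.5 mg/kg had the highest signal of the 10 treated tumours for 28 of 42 genes (66.7%), against 18.2% of all genes. It had the lowest signal for 1 of the 42 (2.38%), against 20.3% of all genes. Both shares of all genes were the largest of any treated tumour, so it was also extreme over the whole array. Replicate 1 at 100 mg/kg had the lowest for 18 of 42 (42.9%), against 8.2% of all genes. Per tumour, the median of the 42 genes minus the control mean was 0.08 in replicate 2 at 87.5 mg/kg and -0.85 in replicate 1 at 100 mg/kg. Without replicate 2 at 87.5 mg/kg the median difference at that dose was -0.34 in place of -0.15, 4 genes passed there in place of 1, and the median for 87.5 against 75 mg/kg was 0.13. Without replicate 1 at 100 mg/kg 9 genes passed at that dose in place of 17, its median was -0.42, and the median for 100 against 75 mg/kg was 0.12 in place of -0.02. Calls over all genes in treated against control moved too, from 2318 to 2844 without the former tumour and to 2089 without the latter. Shares of all genes at each dose in these fits are not given here. The changed counts therefore cannot be read as particular to the 42 genes.

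**Figure D4:**
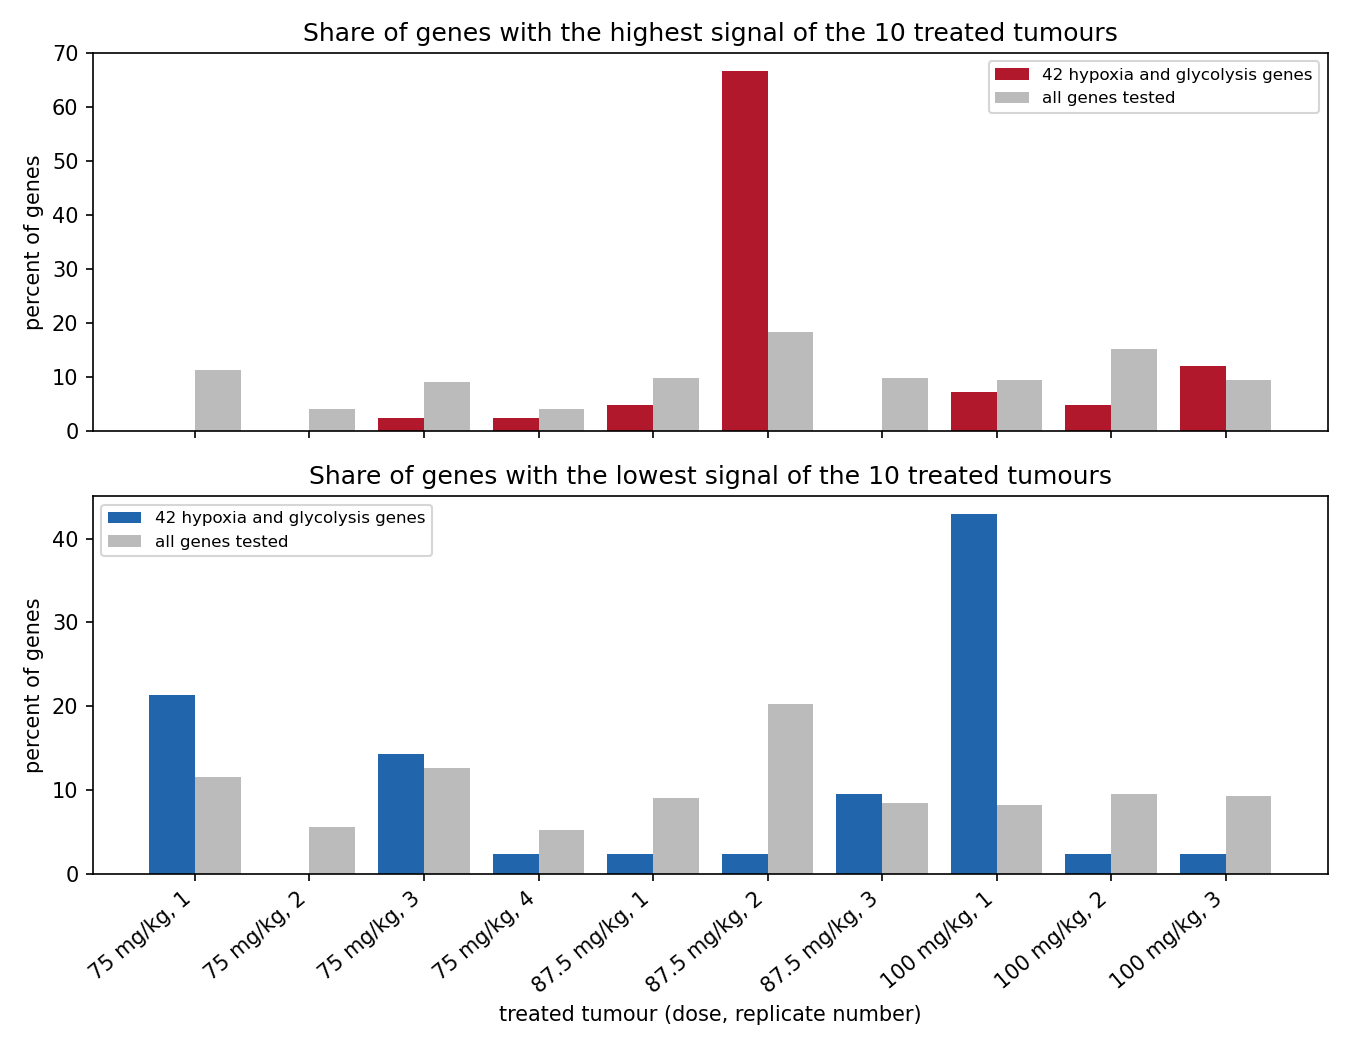
Percent of genes for which each treated tumour (across, by dose and replicate) had the highest (top) or the lowest (bottom) signal of the 10 treated tumours, for the 42 hypoxia and glycolysis genes beside all genes tested. Replicate 2 at 87.5 mg/kg reaches 66.7% in the upper panel, against 18.2% of all genes, and replicate 1 at 100 mg/kg reaches 42.9% in the lower panel, against 8.2%.

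The genes also varied more within a dose than most genes. The median standard deviation within a dose was 0.29 for the 42 genes and 0.21 for all genes, and 29 of 42 (69%) lay above the median of all genes. The widest were ANGPTL4 at 1.77, LOX at 1.22, ADM at 1.15, STC2 at 0.73 and HK2 at 0.62.

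The calls rested on 2 control tumours. Without control replicate 1, 12 of the 14 calls were lost and PKM remained (adjusted p = 0.0316), with BHLHE40 at 0.0688, TPI1 at 0.126, STC2 and BNIP3 at 0.131, PFKFB3 at 0.137, HK1 at 0.169, PLOD1 at 0.188, BNIP3L at 0.19, PFKP at 0.226, EGLN1 at 0.251, HK2 at 0.266 and GPI at 0.357. Without control replicate 2, 10 were lost and PKM (adjusted p = 0.0162), BHLHE40 (0.0462) and PLOD1 (0.0483) remained, with TPI1 at 0.0602 and the others between 0.106 and 0.191. CA12 was not tested in either case, since it then passed detection on 1 array. HK2 also lost its call without replicate 1, 3 or 4 at 75 mg/kg, 1 at 87.5 mg/kg or 1 or 2 at 100 mg/kg (adjusted p of 0.0512 to 0.0675). GPI lost it without replicate 1, 2, 3 or 4 at 75 mg/kg, 1 or 3 at 87.5 mg/kg or 2 at 100 mg/kg (0.0599 to 0.0728). PFKP lost it without replicate 1 or 4 at 75 mg/kg, 1 at 87.5 mg/kg or 1 or 2 at 100 mg/kg (0.0511 to 0.0613), and EGLN1 without replicate 4 at 75 mg/kg, 1 at 87.5 mg/kg or 2 at 100 mg/kg (0.0529 to 0.0546). Without replicate 2 at 87.5 mg/kg, GAPDH (adjusted p = 0.0293), PFKFB4 (0.0278) and ANGPTL4 (0.0442) passed as lower. All differences of the called genes kept their sign in every one of these fits.

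Genes of the same pathways outside the list were read against the same shares of all genes, 8.97% lower and 9.88% higher. Among the glucose and lactate carriers, 1 of 3 tested was lower and 0 were higher. It was SLC2A1, which encodes the glucose transporter GLUT1 and is a HIF target. SLC2A1 had 11.33, 12.10, 10.97 and 10.86 at 75 mg/kg, 11.96, 12.51 and 11.63 at 87.5 mg/kg and 10.46, 11.09 and 11.12 at 100 mg/kg, against 13.11 and 13.41 in controls. All treated tumours were below both controls, the difference was -1.85 (SE 0.31, adjusted p = 0.00215), and the call held in all 22 other settings, with adjusted p of 0.0255 and 0.0365 without control replicate 1 and 2.

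Of 20 other tested genes of glycolysis and pyruvate use, 1 was higher and 3 were lower (18.8% of all genes passed in either direction), with a median of -0.18. The muscle enolase gene ENO3 had 12.07, 11.26, 12.57 and 12.17 at 75 mg/kg, 11.20, 10.23 and 10.46 at 87.5 mg/kg and 11.58, 12.45 and 11.78 at 100 mg/kg, against 8.67 and 8.5 in controls. ENO3 was thus 7.69-fold higher (difference 2.94, SE 0.33, adjusted p = 0.000164), with every treated tumour above both controls, and held in all 22 other settings. The lower genes were PDP1 (-0.77, adjusted p = 0.0184), a phosphatase that activates pyruvate dehydrogenase, PDK4 (-1.17, adjusted p = 0.0444), a kinase that inactivates it, and PGM2 (-0.67, adjusted p = 0.0243), a phosphoglucomutase. These 3 calls were lost without either control (adjusted p of 0.0663 to 0.313), and that of PDK4 also without replicate 1, 3 or 4 at 75 mg/kg, 1 at 87.5 mg/kg or 1, 2 or 3 at 100 mg/kg (0.0523 to 0.0688).

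Of 13 genes of the oxygen sensing pathway, 3 were higher (9.88% of all genes) and 1 was lower (8.97%), with a median of -0.10. ARNT, the partner of the alpha subunits, had 8.43 to 9.08 (median 8.70) in treated tumours and 7.92 and 8.06 in controls, and was higher by 0.71 (SE 0.15, adjusted p = 0.00741). Its relative ARNT2 had 9.01 to 10.01 in treated tumours and 8.41 and 8.71 in controls (difference 0.93, adjusted p = 0.00256), and EGLN2, a prolyl hydroxylase, was higher by 0.67 (adjusted p = 0.0355). EP300, a coactivator of HIF, was lower (-0.67, adjusted p = 0.0107). Without control replicate 1 these adjusted p were 0.108 for ARNT, 0.0681 for ARNT2, 0.281 for EGLN2 and 0.107 for EP300. Without control replicate 2, EGLN2 (0.107) and EP300 (0.077) lost their calls. EGLN2 also lost its call with median scaling (0.52, adjusted p = 0.0649), with unnormalized signals (0.44, adjusted p = 0.08) and without replicate 1, 3 or 4 at 75 mg/kg or 1 at 87.5 mg/kg (adjusted p of 0.0504 to 0.0549).

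Of 31 other tested hypoxia-induced genes, 1 was higher (9.88% of all genes) and 4 were lower (8.97%), with a median of -0.12. CAV1, which encodes the caveolae protein caveolin-1, had 5.25 to 7.27 (median 6.49) in treated tumours and 8.96 and 9.69 in controls. It was lower by -2.92 (SE 0.35, adjusted p = 0.000277), was detected in 7 of 10 treated tumours and passed in all 22 other settings, with differences from -3.27 to -1.72, the last for the mean of its kept probes. The endothelin gene EDN1 (-0.75, adjusted p = 0.028) and the disulfide oxidase gene ERO1A (-1.10, adjusted p = 0.0354) were lower and SAP30, of a deacetylase complex, was higher (0.72, adjusted p = 0.0282). Without control replicate 1 or 2 these were at 0.107 and 0.221 for EDN1, 0.176 and 0.195 for ERO1A and 0.0945 and 0.241 for SAP30. SAP30 also lost its call with median scaling (0.56, adjusted p = 0.1) and with unnormalized signals (0.43, adjusted p = 0.143). ERO1A lost it without replicate 1, 3 or 4 at 75 mg/kg, 1 at 87.5 mg/kg or 1 at 100 mg/kg (adjusted p of 0.0518 to 0.056).

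**Figure D5:**
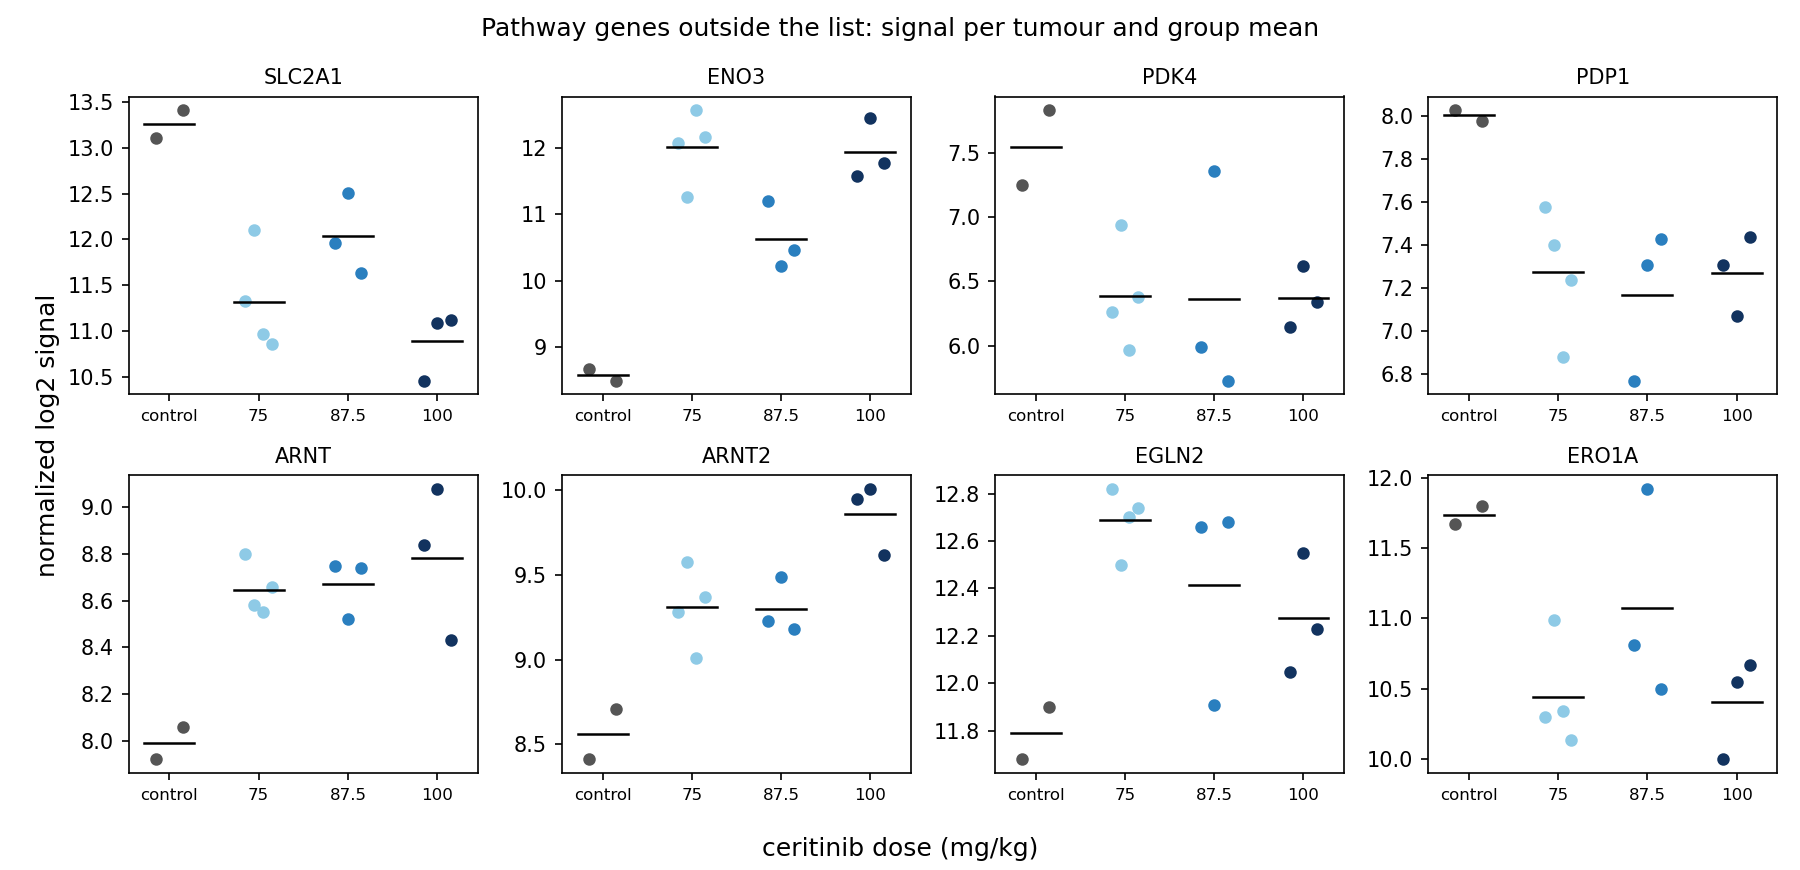
Normalized log2 signal of 8 pathway genes outside the list in each tumour (points) with group means (lines), by ceritinib dose in mg/kg with the controls at the left of each panel. SLC2A1 lies below and ENO3 above both controls in all 10 treated tumours.

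The counts of other gene groups are given beside 8.97% of all genes lower and 9.88% higher. Of 20 cell cycle genes, 6 were lower and 1 higher, with a median of -0.39 and a summed signal of 37947 to 53904 in treated tumours, against 55836 to 67941 in controls. Of 18 tested genes that respond to tissue handling, 4 were lower and 0 higher, with a median of -0.44 and summed signals that overlapped (69527 to 103661 in treated tumours and 102585 to 125735 in controls). Lung epithelial markers had 4 lower and 2 higher of 11 (summed signal of 157397 to 188998 in treated tumours, against 237628 to 257359 in controls). Of the 11 tested stromal, endothelial and immune markers, CD163 and VWF were higher and LUM, COL1A1 and COL1A2 lower, and their sums overlapped (12766 to 15786 in treated tumours and 14193 to 16538 in controls). The part of these groups in the differences of the hypoxia and glycolysis genes was not tested.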

How the data were processed

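Per the labels' protocols, total RNA was purified on columns and amplified to biotinylated cRNA. The authors deposited a bead signal intensity per probe and array without normalization, as text and as a value matrix. A p-value of detection for each signal was deposited too, per the file headers. Both held the same signals, but probe IDs matched at 1 of 47323 rows. The value matrix's IDs were used, since the median log2 signal of GAPDH probes was 14.7 with them and 8.89 with the others.

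Gene symbols came from the platform annotation. A single symbol was given for 30113 probes, several for 8 and none for 17202. In R 4.3.3 (package data.table, version 1.17.8), the neqc function (limma 3.58.1, offset 16) corrected the background, normalized quantiles and took log2. A probe stayed in if 2 or more arrays gave it a detection p below 0.01 (20889 probes, 16291 of them named), and the brightest stood for its gene. Signal levels were not compared between genes.

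The 4 groups were fitted together in limma over 12300 genes with Benjamini-Hochberg adjustment and a threshold of 0.05. All members were named, and of each other pathway list up to 4 genes past the threshold with the smallest p. The genes and lists were chosen with earlier results of these data known. No slide or scan batch was given in the sources used here. The number of arrays limits the precision. Figures used matplotlib 3.10.9 in Python 3.11.15. Alternatives covered background, offset, scaling, low-signal filter, choice of probe, model of the spread, weights per array, a replicate block, the samples in the fit and each tumour left out. A limma fit of all 16291 named kept probes, each on its own, was added after seeing the data. The adjusted p of other probes come from that fit and are adjusted over probes in place of genes. In it the only GPI probe had an adjusted p of 0.0512 and missed the threshold.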

Additional observations from a re-analysis of the deposited data

Results flagged for a closer look

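In the group of 4 tumours at 75 mg/kg, 2 of the 42 genes had a tumour far from the others. Chance gives about 1 in 20 groups, so 2 of 42 is near the number that chance gives and is no result about these genes. For both genes the tumour was replicate 2. LOX was at 9.56 there and at 7.15 to 7.25 in the other tumours of the dose, a gap of 0.957 of the whole range. BHLHE40 was at 13.85 there and at 13.19 to 13.23 in the others, a gap of 0.948 of the range.

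PFKFB3 differed between doses by a test of the difference itself, with -0.84 for 100 against 87.5 mg/kg (limma, adjusted p = 0.0422), the 1 gene of the 42 to do so.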

How the results depend on the processing

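Of 921 values of single members under other settings, 817 kept direction and side of the threshold, 57 lost the call, 35 gained it and 12 changed sign. PKM kept its call in all 22 settings. The count of 12 lower members became 21 with unnormalized signals and 7 with the replicate block, and ranged from 1 to 15 with a tumour left out. The count of 2 higher members became 0 with median scaling, 0 with unnormalized signals and 1 with the block, and ranged from 0 to 3. Called genes over all genes tested ranged from 719 (without control replicate 1) to 2844, with 1205 without control replicate 2. With all tumours kept, 2318 genes passed over all genes tested, against 2611 with median scaling, 3195 with unnormalized signals and 1662 with the block. The count of lower members thus rose with unnormalized signals and fell with the block, as did the count of all called genes. The count of higher members fell with median scaling and with unnormalized signals, while the count of all called genes rose. Of the called genes 47.6% were lower, against 68% with median scaling and 81.2% with unnormalized signals. The causes were not tested.

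Calls at 75 mg/kg (11) became 20 with unnormalized signals, 5 with the replicate block and 19 when only the groups compared were fitted (1 to 16 with a tumour left out). Calls at 87.5 mg/kg (1) became 3 without background correction, 2 with an offset of 50, 4 with median scaling, 6 with unnormalized signals, 0 with detection on at least 6 arrays, where CA12 was not tested, 4 with a trended robust spread and 5 with array weights (0 to 4 with a tumour left out). Calls at 100 mg/kg (17) became 11 with only the groups compared (4 to 20 with a tumour left out). The call for 100 against 87.5 mg/kg became 0 with median scaling, no detection filter, the block or only the groups compared (0 to 1 with a tumour left out), with adjusted p for PFKFB3 from 0.0189 to 0.146. For treated against control, fitting only the groups compared uses the same tumours and gave no separate value. Over all genes tested, the 2318 calls for treated against control became 3195 with unnormalized signals and 1662 with the replicate block. Shares of all genes at each dose and between doses under these settings are not given here. The changed counts at each dose and between doses therefore cannot be read as particular to the listed genes.

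VEGFA, at 0.00, had -0.14 with median scaling, -0.20 with unnormalized signals, -0.03 for the mean of probes, -0.02 with array weights, -0.06 for its other probe and -0.08 to -0.04 (all tumours left out in turn: -0.08 to 0.08) without control replicate 2, 75 mg/kg replicate 2, 87.5 mg/kg replicate 2 or 100 mg/kg replicate 3. P4HA2 had -0.07 with median scaling and -0.15 unnormalized. MXI1 had -0.04 for the mean of probes and -0.39 for its other probe, and NDRG1 had 0.03 without 100 mg/kg replicate 1 (-0.3 to 0.03 over all tumours left out in turn).

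Replicate numbers showed no clear pairing of the tumours. Deviations from group means of 15 same-numbered pairs correlated at -0.22 to 0.38 (median -0.03), with 4 over 0.1. Those of 38 other pairs correlated at -0.39 to 0.39 (median -0.01), with 11 over 0.1. With so few tumours per group, a weak pairing could not be seen in this way. With the replicate block 1662 genes were called and 8 of the 14 member calls remained. Lost were the calls of HK1, HK2, GPI, PFKP, EGLN1 and BNIP3 (limma, adjusted p = 0.0545 for BNIP3). Of the named genes outside the list, EGLN2 (adjusted p = 0.122), EDN1 (0.0863), SAP30 (0.0786), PGM2 (0.0781) and PDP1 (0.0715) also lost theirs. The dim gene CA12 has a bound in place of a fold, since its signal in treated tumours lay at background.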
